A study of Rattus norvegicus with 2 samples.

Results

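The genes described here are the chromatin regulators of a rat oligodendrocyte RNA sequencing study: histone deacetylases, subunits of SWI/SNF and related remodellers, CHD remodellers, ARID proteins, histone lysine demethylases and methyltransferases, the core of Polycomb repressive complex 2 (PRC2), bromodomain proteins, DNA methyltransferases, TET dioxygenases and arginine methyltransferases. They were chosen by symbol alone (Hdac, Smarca to Smarce, Chd, Arid, Kdm, Kmt, Ezh1, Ezh2, Eed, Suz12, Brd, Dnmt, Tet1 to Tet3 and Prmt followed by a number where the name takes one), and 98 of the 18049 rows of the expression table met that rule. The siHsc70 group was made of wild-type rat oligodendrocyte precursor cells electroporated with an siRNA against Hsc70, the constitutive HSP70-family chaperone encoded by Hspa8. The siSCR group was made of wild-type precursors electroporated in the same way with siSCR. Both groups came from the cortex of pups of postnatal day 2 to 4, were purified with antibody-coated plates against GalC and A2B5, and were taken after 2 days in differentiation medium, which holds the hormone T3 at 60 nM and lacks PDGF-AA, bFGF and NT3. Forskolin and CNTF were among the supplements of both media. Each group was 1 library, so no spread between cultures could be measured, no test between the groups was possible, and whether the groups overlap cannot be judged. The siRNA that defines the siHsc70 library is shown because it is the agent that sets this group apart. Where it matches rat transcripts was not analysed here.
siHsc70: tcatgactgtcctcatcaa

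Chromatin regulators set which genes a cell can read. Histone deacetylases and the PRC2 complex close chromatin by removing acetyl groups or adding a repressive methyl mark to histones, whereas SWI/SNF and CHD enzymes use ATP to move or evict nucleosomes. DNA methyltransferases add methyl groups to cytosine and TET enzymes start their removal. In the oligodendrocyte lineage of the mouse, several of them are needed for precursors to become myelin-forming cells, among them HDAC1 with HDAC2, the SWI/SNF ATPase BRG1 (Smarca4), CHD7, CHD8, EED, DNMT1, TET1 and PRMT5.

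The 2 libraries had total estimated counts of 18130817 (siHsc70) and 19085626 (siSCR), and the chromatin regulators took 0.676% of the siHsc70 counts and 0.826% of the siSCR counts. Levels are given as CPM (counts scaled to a common library total, with TMM factors that correct for composition) for the same gene across libraries, and as TPM (scaled for transcript length as well) where different genes are compared. The targeted gene Hspa8 was at 507 CPM in siHsc70 and 1399 CPM in siSCR. All 13 markers of the oligodendrocyte lineage were measured, with a summed level of 3112 CPM in siHsc70 and 8747 CPM in siSCR. At least 2-fold lower in siHsc70 were 10 of them, against 5.15% of all measured genes. The 8 astrocyte markers summed to 3075 CPM in siHsc70 and 3621 CPM in siSCR, but single genes went both ways: 5 of the 8 were higher in siHsc70 (4 with the deposited TPM). Among them, Aqp4 was at 20.6 CPM in siHsc70 and 85.0 CPM in siSCR, and Clu was at 181 CPM in siHsc70 and 73.5 CPM in siSCR. The 8 neuronal markers, 5 of them lower and 3 higher, summed to 502 CPM in siHsc70 and 745 CPM in siSCR. Of 8 fibroblast and mural markers 5 were measured, at a sum of 107 CPM in siHsc70 and 42.7 CPM in siSCR. Of 8 microglial markers 5 had a row and 1 was measured, Cd68, at 4.34 CPM in siHsc70 and 1.66 CPM in siSCR, while P2ry12, Csf1r, Aif1 and Ptprc had 1 to 5 counts in siHsc70 and 0 to 15 in siSCR. In bulk RNA, fewer cells of a type and less RNA per cell cannot be told apart, and the part of these markers in the differences below was not tested.

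Most chromatin regulators were modestly lower in the siHsc70 library, and few were far from the level in siSCR. Of the 98 genes, 92 were measured, meaning that their mean over siHsc70 and siSCR was 1 CPM or more. For each gene the difference is log2(CPM + 1) in siHsc70 minus siSCR, and a difference of 1 is called 2-fold. At least 2-fold lower in siHsc70 were 5 of the 92 (5.43%), against a background of 5.15% over the 13518 measured genes, so that this share is near the background. At least 2-fold higher were 0 of 92, against 2.29% of all measured genes. At least 1.5-fold lower were 16 of 92 (17.4%), against 12.1% of all measured genes, and at least 1.5-fold higher were 0, against 9.65%. Lower by any amount were 72 of 92 (78.3%), against 50.3% of all measured genes, and 20 (21.7%) were higher, against 49.7%. The median difference was -0.28 over the chromatin regulators and -0.0035 over all measured genes. With the deposited TPM values the median was -0.41 over the chromatin regulators and -0.13 over all genes, and the split of all genes at 2-fold was 810 lower and 207 higher in place of 696 and 310.

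**Figure D1:**
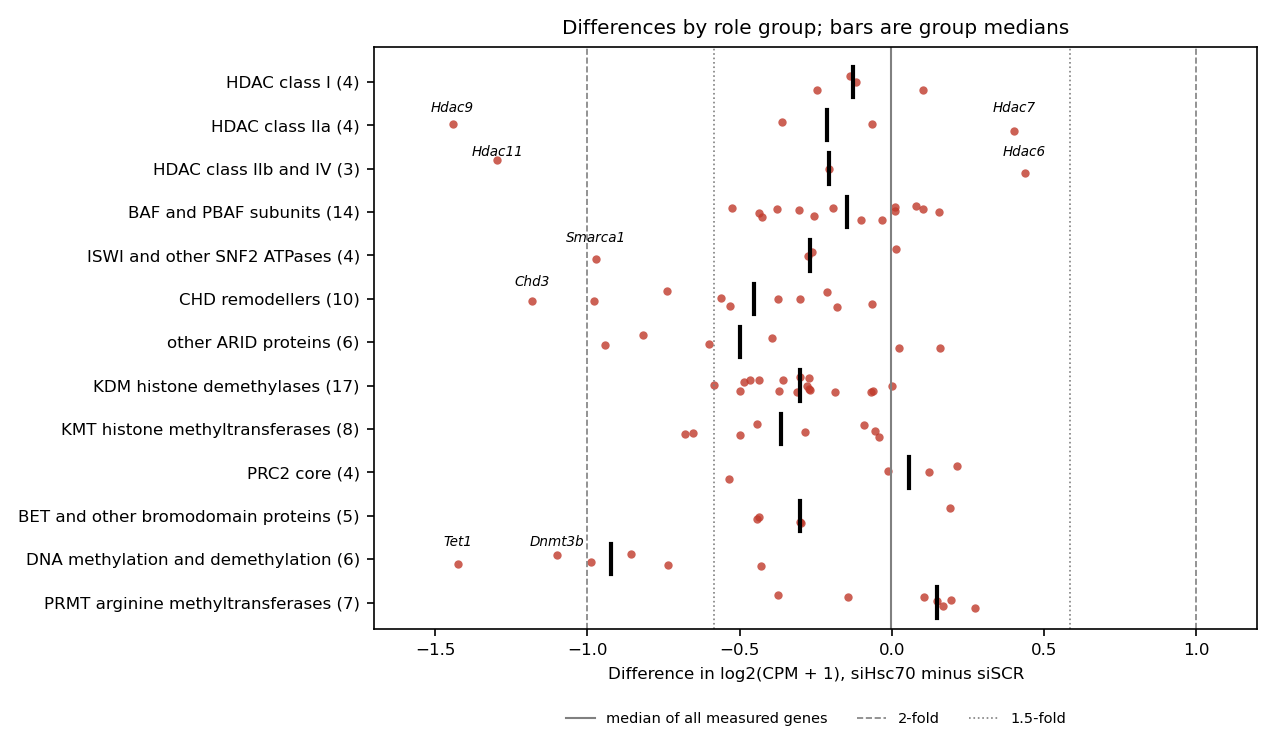
Difference in log2(CPM + 1), siHsc70 minus siSCR, of each of the 92 measured chromatin regulators (points), by role group with the number of genes in brackets. Black bars are group medians, the grey line is the median of all measured genes, and dashed and dotted lines mark 2-fold and 1.5-fold. The DNA methylation group has the lowest median (-0.92), and the PRMT group has the highest (0.15).

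The direction of most members did not depend on how the libraries were scaled. Under 6 scalings (TMM, upper quartile, DESeq2 size factors, total counts, deposited TPM and deposited FPKM), 67 measured members were lower in siHsc70 in all 6, 11 were higher in all 6, and 14 had a sign that depended on the scaling. Those 14 were Hdac8, Brd7, Brd9, Smarcb1, Smarcd3, Smarcal1, Arid4a, Kdm1b, Kdm4a, Kmt5a, Kmt5c, Ezh1, Suz12 and Prmt9. The 11 higher ones were Hdac6, Hdac7, Smarca2, Smarcd2, Arid5b, Eed, Brd2, Prmt2, Prmt5, Prmt6 and Prmt7. The 9 least abundant members, at a mean of 1.00 to 10.1 CPM, were all lower, 7 of them by at least 1.5-fold and 3 by at least 2-fold. Over all 3380 genes in that lowest of 4 equal classes of expression, 48.8% were lower, 17.5% by at least 1.5-fold and 6.78% by at least 2-fold. Of the 39 members in the highest class, above 79.0 CPM, 35 were lower, and 1, Chd7, by at least 1.5-fold. Over all 3380 genes of that class 48.9% were lower and 8.88% by at least 1.5-fold.

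**Figure D2:**
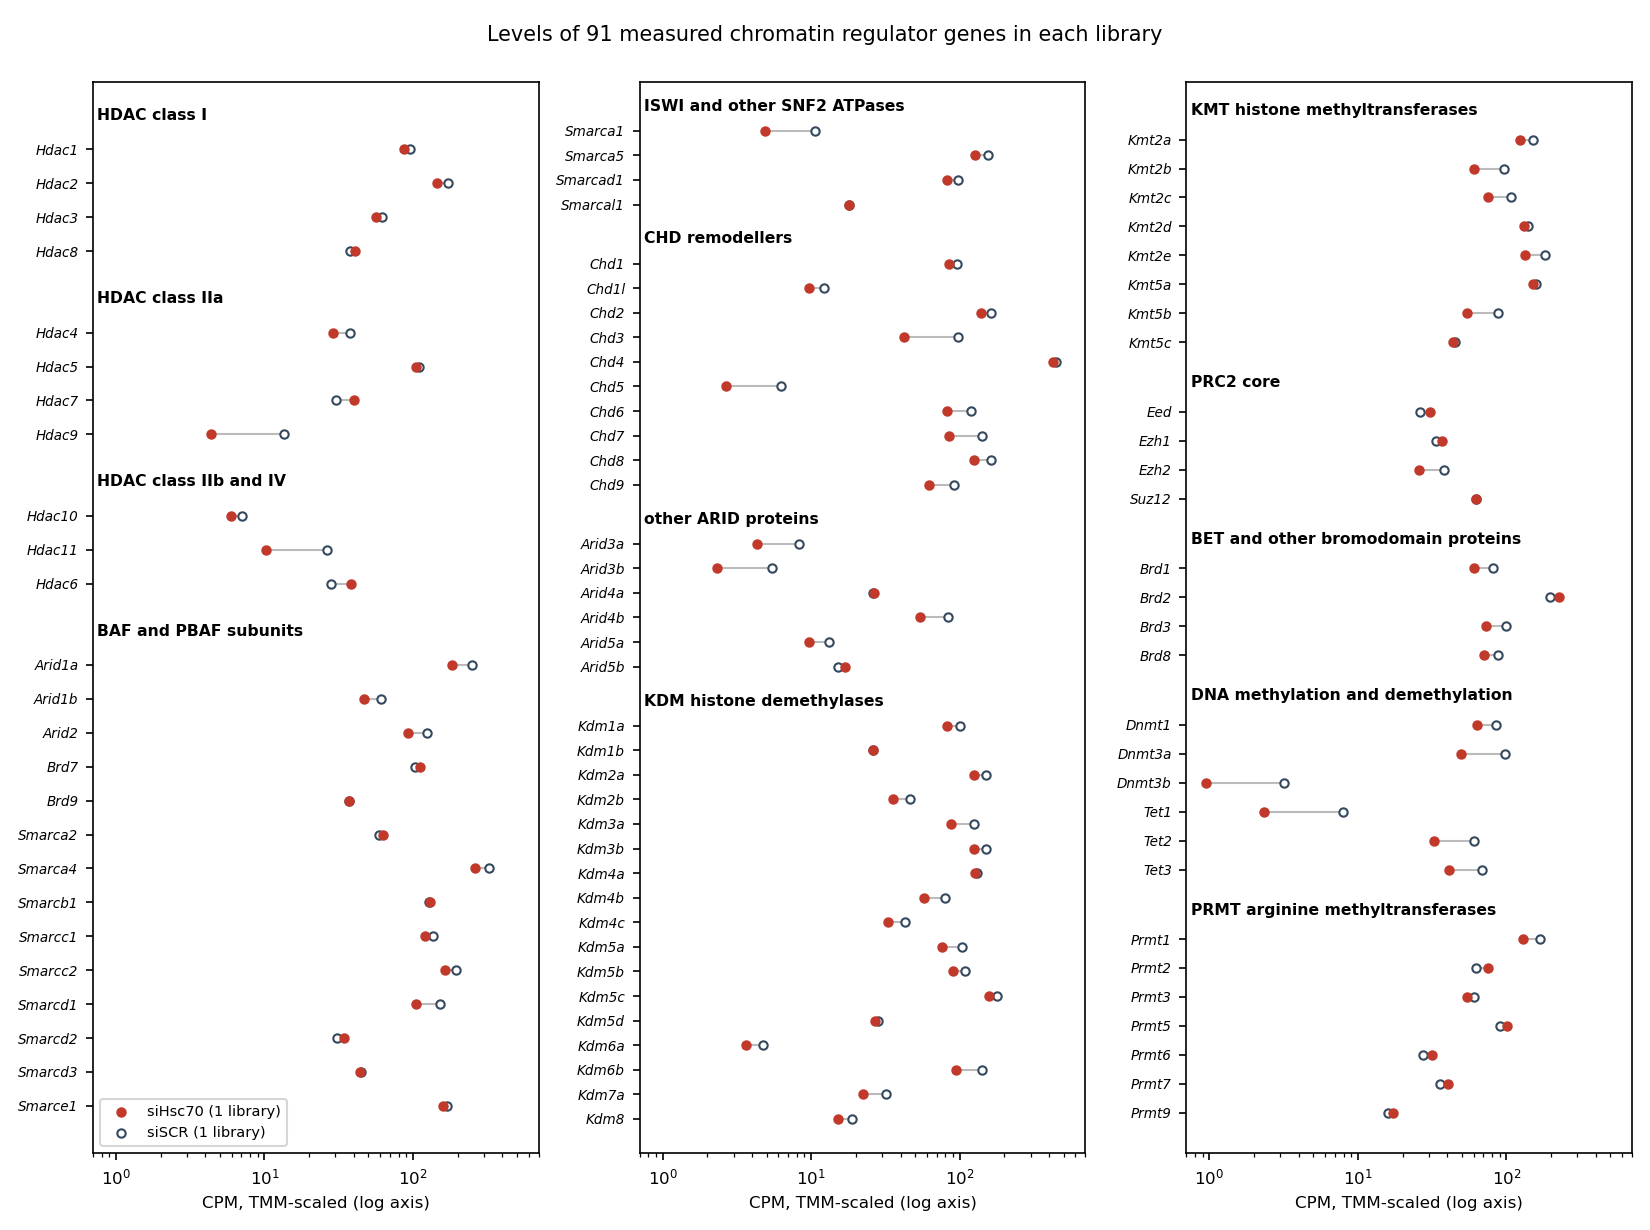
Level of 91 of the 92 measured chromatin regulators in the siHsc70 library (filled red) and the siSCR library (open), in TMM-scaled CPM on a log axis, by role group. Each point is 1 library. Most filled points lie left of the open ones by a small step, with wider gaps at Hdac9, Hdac11, Chd3, Chd5, Smarca1, Arid3b, Dnmt3b and Tet1.

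Transcripts of chromatin regulators are long, and longer transcripts were lower in siHsc70 across the measured genes with a length estimate in siSCR. The effective length implied by count and FPKM in siSCR had a median of 4481 bases over 90 members and 2455 bases over 12363 measured genes. Of those members, 55 lay in the longest of 4 equal classes of all genes, above 3845 bases. Their median difference was -0.38 and 49 of the 55 were lower, 13 by at least 1.5-fold and 3 by at least 2-fold. All 3091 measured genes of that class had a median of -0.18, with 67.7% lower, 18.6% lower by at least 1.5-fold and 8.67% by at least 2-fold. In the class below, from 2455 to 3845 bases, the median was -0.19 over 21 members and -0.064 over all genes. In the next, from 1552 to 2455 bases, it was 0.011 over 13 members and 0.045 over all genes, and 6 of those 13 members were lower. The shortest class held 1 member, Prmt1. Across the 90 members the difference correlated with log2 length at Pearson's r = -0.40 and Spearman's rho = -0.53, against -0.23 and -0.27 across all 12363 genes. These correlations are across genes of the same pair of libraries and describe them only. Genes entered the classes and correlations by an FPKM of at least 1 in siSCR, whatever their FPKM in siHsc70. Genes above that level only in siHsc70 were left out. Hdac9, Tet1, Arid3a and Arid3b, all in the longest class and at least 1.5-fold lower, had an FPKM under 1 in siHsc70. How far this filter shapes the trend was not tested. The part of length in the lower levels was not tested.

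**Figure D3:**
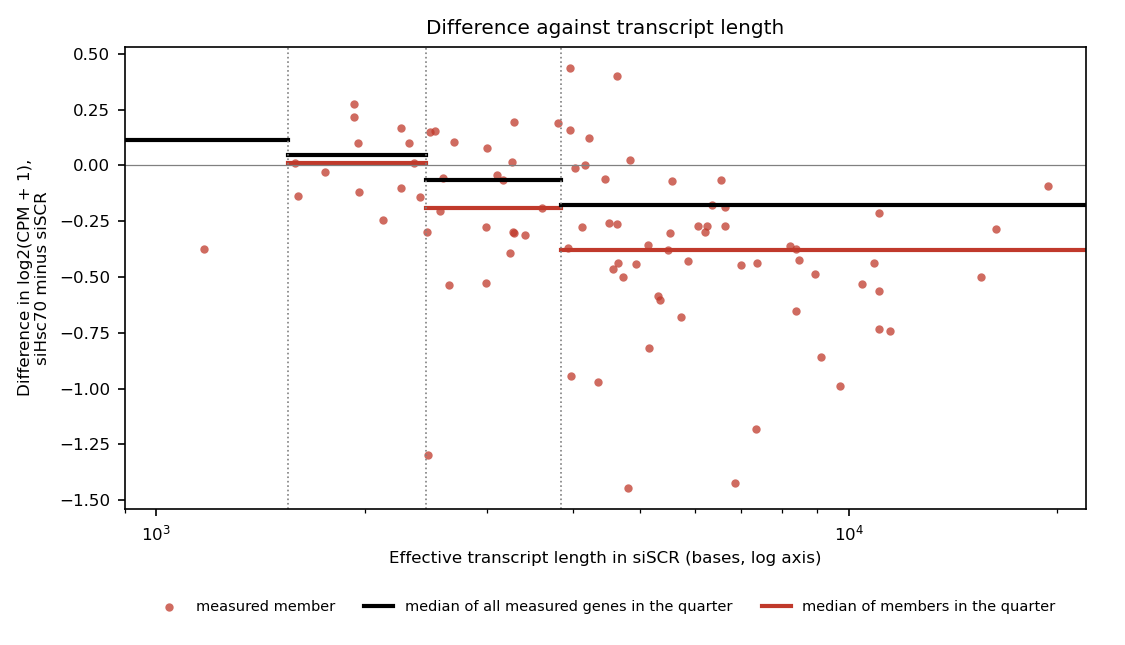
Difference in log2(CPM + 1), siHsc70 minus siSCR, of 90 measured chromatin regulators (points) against effective transcript length in siSCR in bases on a log axis. Only genes with an FPKM of at least 1 in siSCR are included. Horizontal lines are medians within 4 equal classes of length of all measured genes, black for all genes and red for the chromatin regulators where a class held more than 1. Both medians are lower at longer lengths, and the red line of the longest class (-0.38) lies below the black one (-0.18).

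The enzymes of DNA methylation and demethylation had the lowest group median, -0.92, and all 6 measured members were lower in siHsc70. Over all measured genes 50.3% were lower. All of the 6 but Dnmt3b, which had no length estimate, lay in the longest class of transcripts, in which 67.7% of all genes were lower. Tet1, a dioxygenase that oxidises methylated cytosine, was at 2.34 CPM in siHsc70 and 7.95 CPM in siSCR, 3.41-fold lower (95% counting interval 2.41 to 4.91). Tet2 was at 32.7 CPM in siHsc70 and 60.0 CPM in siSCR, 1.84-fold lower (1.66 to 2.03). Tet3 was at 41.0 CPM in siHsc70 and 68.9 CPM in siSCR, 1.68-fold lower (1.53 to 1.84). All TET genes were therefore lower, and on the TPM scale, which allows genes to be compared, their summed level was 14.5 TPM in siHsc70 and 29.3 TPM in siSCR. The de novo methyltransferase gene Dnmt3a was at 49.2 CPM in siHsc70 and 98.4 CPM in siSCR, 2.00-fold lower (1.85 to 2.17). With the pseudocount its difference was -0.99, just short of the 2-fold line. Its relative Dnmt3b was at 0.945 CPM in siHsc70 and 3.17 CPM in siSCR, 3.35-fold lower (1.93 to 6.13), and it was the 1 measured member under 1 CPM in either library. Dnmt1, which copies methylation onto newly replicated DNA, was at 62.9 CPM in siHsc70 and 85.1 CPM in siSCR, 1.35-fold lower (1.25 to 1.46). Dnmt3l, which encodes a cofactor without catalytic activity, had 1 count in siHsc70 and 0 in siSCR. Cell cycle and replication genes were also lower, with 24 of 25 lower and 7 by at least 2-fold, against 50.3% and 5.15% of all measured genes. Their summed level was 507 CPM in siHsc70 and 756 CPM in siSCR. The 7 past 2-fold were Mki67, Top2a, Bub1, Cenpf, Aurkb, Ccna2 and Mcm5, and Mki67 was at 24.7 CPM in siHsc70 and 55.5 CPM in siSCR. The part of cell cycle genes in the lower Dnmt1, and in the lower Ezh2 given below, was not tested.

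Among the histone deacetylases, those of class I, which include the catalytic subunits of the NuRD, SIN3 and CoREST corepressors, were at similar levels in both libraries. Hdac1 was at 87.2 CPM in siHsc70 and 94.8 CPM in siSCR, 1.09-fold lower (1.02 to 1.16). Hdac2, the most abundant HDAC gene at 129 TPM in siHsc70 and 169 TPM in siSCR, was at 145 CPM in siHsc70 and 172 CPM in siSCR, 1.19-fold lower (1.13 to 1.25). Hdac3, the catalytic subunit of the NCoR complexes, was at 56.1 CPM in siHsc70 and 61.7 CPM in siSCR, 1.10-fold lower (1.01 to 1.20). Hdac8 was at 40.8 CPM in siHsc70 and 37.9 CPM in siSCR, a ratio whose counting interval included 1 (0.97 to 1.19). These enzymes thus held their order of abundance, with Hdac2 first and Hdac8 last in both libraries.

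The largest differences of the deacetylases lay outside class I and went both ways. Hdac9, a class IIa member whose protein moves between nucleus and cytoplasm, was at 4.34 CPM in siHsc70 and 13.5 CPM in siSCR, 3.12-fold lower (2.41 to 4.07), the difference furthest below 0 among the 92 measured members (-1.44). Hdac11, the only class IV member, was at 10.2 CPM in siHsc70 and 26.5 CPM in siSCR, 2.60-fold lower (2.19 to 3.10). In contrast, Hdac7 was at 40.3 CPM in siHsc70 and 30.2 CPM in siSCR, 1.33-fold higher (1.19 to 1.49). Hdac6, whose protein is a cytoplasmic deacetylase of tubulin, was at 38.5 CPM in siHsc70 and 28.2 CPM in siSCR, 1.37-fold higher (1.22 to 1.53) and the highest difference of all members (0.44). A second row under a LOC name, which RefSeq now calls Hdac6, carried the same values in both libraries, so the level of this gene is uncertain by the reads that the rows share, while the ratio is the same in each. Hdac5 was the most abundant class IIa gene, at 62.9 TPM in siHsc70 and 72.6 TPM in siSCR, and its counts were 1.05-fold lower (0.98 to 1.12). Hdac4 was at 29.0 CPM in siHsc70 and 37.6 CPM in siSCR, and Hdac10 at 5.95 CPM in siHsc70 and 7.02 CPM in siSCR.

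Chromatin remodellers of the CHD family were lower without exception: 10 of 10 members, with a median of -0.45 and 3 at least 1.5-fold lower. Over all measured genes 50.3% were lower and 12.1% by at least 1.5-fold. Chd5 had no length estimate, since its FPKM in siSCR was 0.55. Of the other CHD genes, all but Chd1l lay in the longest class of transcripts, above 3845 bases. In that class 67.7% of all genes were lower and 18.6% by at least 1.5-fold. Chd3, an ATPase of the NuRD complex, was at 42.3 CPM in siHsc70 and 97.2 CPM in siSCR, 2.30-fold lower (2.11 to 2.50). Its paralog Chd4, the most abundant CHD gene at 123 TPM in siHsc70 and 142 TPM in siSCR, was at 425 CPM in siHsc70 and 444 CPM in siSCR, 1.05-fold lower (1.01 to 1.08). These alternative NuRD ATPases thus lay at different distances from siSCR although both were lower, and Chd3 made up 8.14% of the summed TPM of Chd3, Chd4 and Chd5 in siHsc70 and 16.2% in siSCR. Chd5, a mainly neuronal paralog, was at 2.67 CPM in siHsc70 and 6.24 CPM in siSCR. Chd7, a remodeller that acts with SOX10 at myelin genes in the mouse, was at 84.6 CPM in siHsc70 and 142 CPM in siSCR, 1.68-fold lower (1.58 to 1.79). Its relative Chd8 was at 125 CPM in siHsc70 and 163 CPM in siSCR, 1.30-fold lower (1.23 to 1.37). Chd6 was 1.45-fold lower (1.36 to 1.55) and Chd9 was 1.48-fold lower (1.38 to 1.60). The remaining members, Chd1, Chd1l and Chd2, were 1.13-fold to 1.26-fold lower.

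The promoters of 4 members that were 2-fold or more lower by their counts are shown, since genes of these enzymes were lower together; of the 92 measured members, 79 had a promoter of 300 bases, most of them before the annotated start, in the RefSeq table of build GRCr8. Capitals mark, on either strand, the letters ACAANG, a core that SOX proteins bind, and GAANNTTC, a short part of a heat shock element.
Tet1 (chr20:25766556-25766855, plus strand): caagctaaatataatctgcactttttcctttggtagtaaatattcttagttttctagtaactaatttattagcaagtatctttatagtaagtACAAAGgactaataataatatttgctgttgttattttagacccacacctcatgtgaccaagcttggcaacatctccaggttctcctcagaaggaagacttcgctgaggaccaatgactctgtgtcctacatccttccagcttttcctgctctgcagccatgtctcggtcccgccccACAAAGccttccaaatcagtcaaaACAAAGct
Dnmt3a (chr6:32598352-32598651, plus strand): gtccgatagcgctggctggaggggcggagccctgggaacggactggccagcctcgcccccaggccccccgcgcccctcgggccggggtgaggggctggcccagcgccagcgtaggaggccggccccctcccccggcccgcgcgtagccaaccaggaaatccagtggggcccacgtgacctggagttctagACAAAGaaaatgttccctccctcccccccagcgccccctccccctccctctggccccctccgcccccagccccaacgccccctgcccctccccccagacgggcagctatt
Hdac9 (chr6:57052522-57052821, minus strand): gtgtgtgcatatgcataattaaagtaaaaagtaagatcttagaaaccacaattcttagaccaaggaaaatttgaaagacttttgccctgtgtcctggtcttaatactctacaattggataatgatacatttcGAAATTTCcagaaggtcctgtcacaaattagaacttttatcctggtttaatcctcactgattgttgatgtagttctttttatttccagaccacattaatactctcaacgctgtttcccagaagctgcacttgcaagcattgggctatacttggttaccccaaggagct
Chd3 (chr10:54588761-54589060, minus strand): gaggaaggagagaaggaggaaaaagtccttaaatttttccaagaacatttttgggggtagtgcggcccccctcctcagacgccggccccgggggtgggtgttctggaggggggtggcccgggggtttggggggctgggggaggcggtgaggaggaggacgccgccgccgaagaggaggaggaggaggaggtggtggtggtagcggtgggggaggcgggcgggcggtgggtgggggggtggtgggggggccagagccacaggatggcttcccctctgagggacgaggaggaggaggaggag

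The Tet1 window held 3 matches to ACAANG, the Dnmt3a window 1 such match, the Hdac9 window 1 match to GAANNTTC, and the Chd3 window no match to either. ACAANG was found in 29 of the 79 promoters of measured members (36.7%), against 33.9% of 13566 promoters of genes in the expression table. GAANNTTC was found in 8 of the 79 (10.1%), against 6.13%. The member promoters had a median of 24 CpG dinucleotides and a GC content of 62.7%, against 18 and 59.3% over the genes in the table. The Tet1 and Hdac9 windows were poorer in both, with 3 CpG and 40.0% GC at Tet1 and 2 CpG and 37.0% GC at Hdac9. Arid3b, Chd5 and Smarca1, which were also more than 2-fold lower by their counts and are not printed, had 0 matches to either motif. The printed windows thus include every match among these members. Hdac11 and Dnmt3b, also more than 2-fold lower by their counts, had no such window. A match is a match of letters only. The later matches of the Tet1 window follow an ATG near its end with no stop codon in frame, so they may lie in coding sequence. Whether these windows hold the promoters used in these cells was not tested.

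The members that encode subunits of the SWI/SNF complexes, called BAF and PBAF in mammals, differed by less than 1.5-fold between the libraries. Of 14 measured subunit genes, 9 were lower and 5 higher, and the median was -0.15. Over all measured genes 50.3% were lower. With upper-quartile scaling 8 of the 14 were lower and 6 higher, and with the deposited TPM 12 were lower and 2 higher. Smarca4, encoding the ATPase BRG1, was at 263 CPM in siHsc70 and 325 CPM in siSCR, 1.24-fold lower (1.19 to 1.28). The alternative ATPase gene Smarca2, encoding BRM, was at 62.6 CPM in siHsc70 and 59.2 CPM in siSCR, within counting error of each other (0.97 to 1.15). Smarca2 made up 33.9% of the summed TPM of both ATPases in siHsc70 and 25.1% in siSCR. Smarca2 was the 1 member of 86 whose implied effective length differed by over 10% between libraries, at 2559 bases in siHsc70 and 3008 bases in siSCR, against 1.71% of all measured genes. That shift in estimated length enters its TPM but not its CPM. Smarcd1, encoding a BAF60 subunit, was the subunit gene furthest below 0, at 105 CPM in siHsc70 and 151 CPM in siSCR, 1.44-fold lower (1.36 to 1.53). Its paralog Smarcd2 was furthest above 0, at 34.4 CPM in siHsc70 and 30.8 CPM in siSCR, 1.12-fold higher (1.00 to 1.25). The core subunit Smarcb1, the most abundant of the group at 156 TPM in siHsc70 and 171 TPM in siSCR, was at 130.0 CPM in siHsc70 and 129 CPM in siSCR.

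The large DNA-binding subunits were lower by a common step. Arid1a was at 184 CPM in siHsc70 and 249 CPM in siSCR, 1.35-fold lower (1.30 to 1.42). Arid1b was 1.31-fold lower (1.19 to 1.43), and the PBAF subunit gene Arid2 was 1.35-fold lower (1.26 to 1.43). Arid1a made up 74.8% of the summed Arid1a and Arid1b TPM in siHsc70 and 75.4% in siSCR, so the balance of these alternative subunits was nearly the same. The scaffold genes Smarcc1 and Smarcc2 lay at a difference of -0.19 and -0.26, whereas Smarce1, Smarcd3, Brd7 and Brd9 lay between -0.10 and 0.10. Of ARID genes outside these complexes, 4 of 6 measured were lower and 3 by at least 1.5-fold. Over all measured genes these shares were 50.3% and 12.1%. In the lowest class of expression, which holds Arid3a and Arid3b, 17.5% of all genes were at least 1.5-fold lower. Arid3b was at 2.34 CPM in siHsc70 and 5.41 CPM in siSCR, 2.31-fold lower (1.60 to 3.40), Arid3a at 4.28 CPM in siHsc70 and 8.32 CPM in siSCR, and Arid4b, the most abundant of them by TPM, at 54.4 CPM in siHsc70 and 83.0 CPM in siSCR. Arid5b was at 17.0 CPM in siHsc70 and 15.1 CPM in siSCR, with a counting interval of the ratio from 0.95 to 1.33. Arid5a and Arid4a lay at differences of -0.39 and 0.02.

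Of the ISWI ATPases, which space nucleosomes, Smarca1 was at 4.89 CPM in siHsc70 and 10.6 CPM in siSCR, 2.16-fold lower (1.67 to 2.80). The far more abundant Smarca5, at 58.7 TPM in siHsc70 and 78.4 TPM in siSCR, was at 127 CPM in siHsc70 and 154 CPM in siSCR, 1.21-fold lower (1.15 to 1.28). Smarcad1 was at 81.5 CPM in siHsc70 and 98.0 CPM in siSCR, and Smarcal1, an annealing helicase, at 18.0 CPM in siHsc70 and 17.8 CPM in siSCR.

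**Figure D4:**
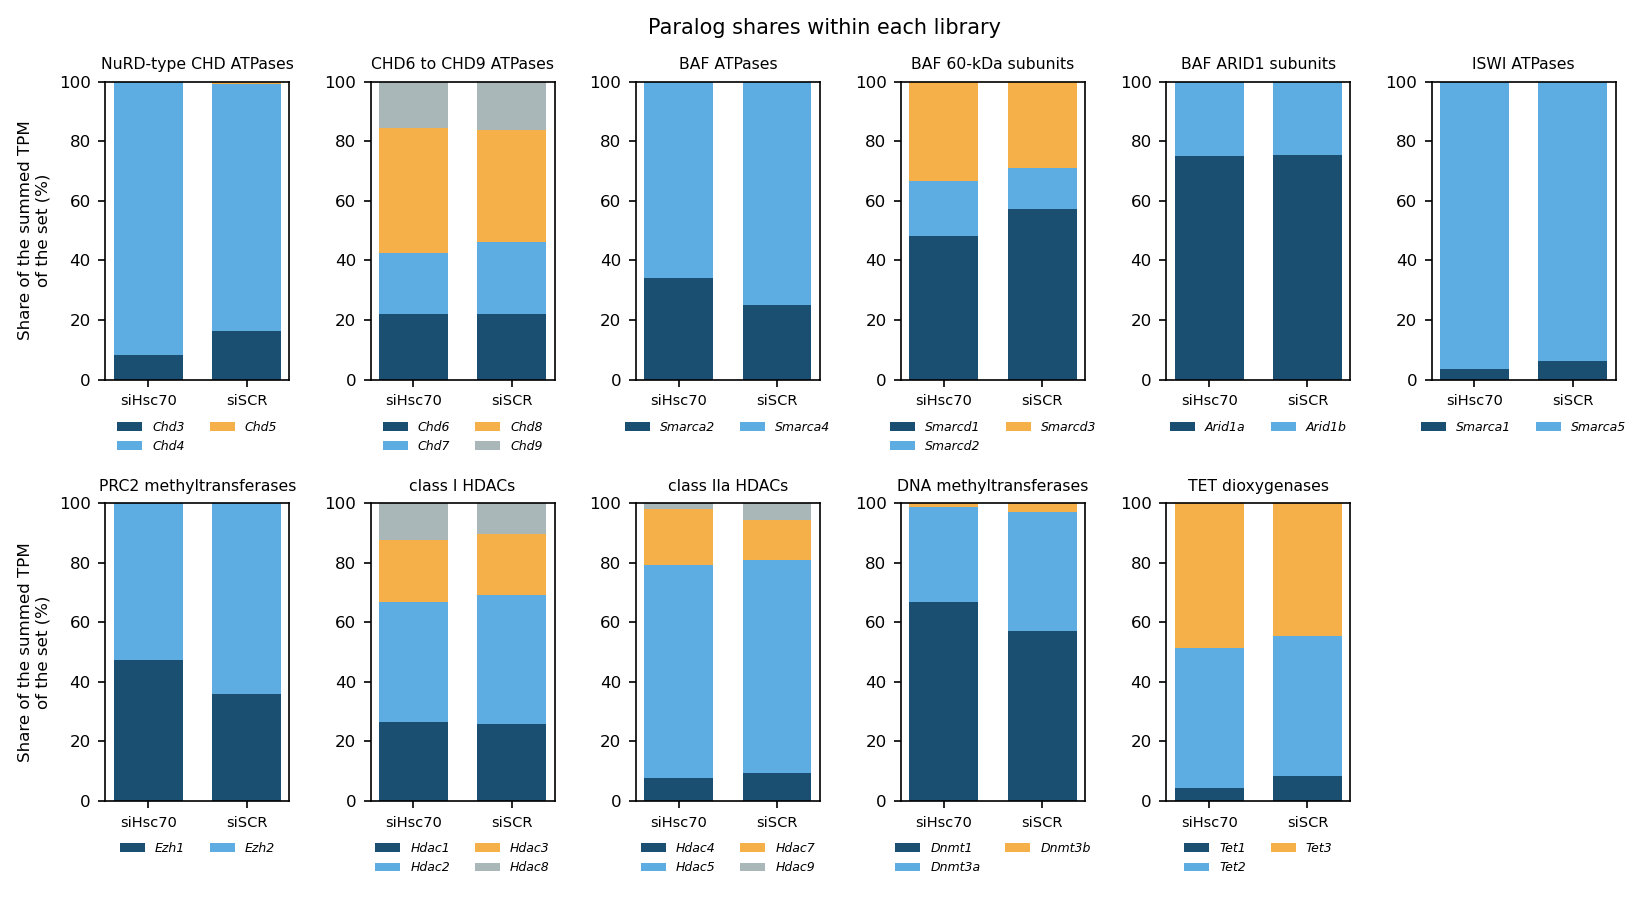
Share of each paralog in the summed TPM of its set (%, bars from 0 to 100), with the siHsc70 library on the left and the siSCR library on the right of each panel. Each bar is 1 library and carries no error. The Chd3 share is 8.14% in siHsc70 and 16.2% in siSCR, and the Ezh2 share is 52.8% in siHsc70 and 64.1% in siSCR, whereas the Arid1a share is 74.8% in siHsc70 and 75.4% in siSCR.

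Histone lysine demethylase genes were lower by small steps: 16 of 17 measured were lower, with a median of -0.30, and none reached 1.5-fold on the scale of differences. Over all measured genes 50.3% were lower. All of these rows but Kdm1a, Kdm6a and Kdm8 lay in the longest class of transcripts, in which 67.7% of all genes were lower. Kdm6b, whose product removes the Polycomb mark from histones, was furthest below 0 (-0.58), at 94.4 CPM in siHsc70 and 142 CPM in siSCR. Kdm3a, which acts on a heterochromatin mark, was at 87.5 CPM in siHsc70 and 124 CPM in siSCR, 1.42-fold lower (1.33 to 1.51). Kdm1a, encoding the CoREST demethylase LSD1, was at 82.6 CPM in siHsc70 and 100.3 CPM in siSCR, 1.21-fold lower (1.13 to 1.30), and Kdm4a at 126 CPM in siHsc70 and 131 CPM in siSCR. Kdm1b, the 1 member not lower, was at 25.9 CPM in both libraries. The differences of a further 11 genes lay between -0.49 at Kdm7a and -0.07 at Kdm5d. The row deposited as Kdm6a, at 3.61 CPM in siHsc70 and 4.73 CPM in siSCR, carries a gene ID that RefSeq now names Uty, the Y-linked paralog.

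Histone lysine methyltransferase genes of the KMT families were lower in 8 of 8 cases, with a median of -0.36, against 50.3% of all measured genes. With upper-quartile scaling 6 of the 8 were lower. All but Kmt5a and Kmt5c lay in the longest class of transcripts, in which 67.7% of all genes were lower. Kmt5b, which adds further methyl groups to a singly methylated lysine of histone tails, was at 54.2 CPM in siHsc70 and 87.4 CPM in siSCR, 1.61-fold lower (1.49 to 1.75). Kmt5a, which places the first methyl group there and was the most abundant of the group, was at 152 CPM in siHsc70 and 158 CPM in siSCR, 1.04-fold lower (0.99 to 1.09). Kmt5c, the paralog of Kmt5b, lay closest to 0 in difference, at 43.6 CPM in siHsc70 and 45.0 CPM in siSCR. Kmt2b, of the MLL family that marks active promoters, was at 60.8 CPM in siHsc70 and 96.3 CPM in siSCR, 1.58-fold lower (1.47 to 1.71). Other MLL genes were lower by less, from 1.07-fold (1.01 to 1.13) at Kmt2d to 1.42-fold (1.32 to 1.52) at Kmt2c. Their effective lengths in siSCR were 19397 bases at Kmt2d, 16318 at Kmt2a, 15505 at Kmt2c and 6988 at Kmt2e, against 8399 at Kmt2b.

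The core of PRC2 was split. Ezh2, the methyltransferase of dividing cells, was at 25.7 CPM in siHsc70 and 37.8 CPM in siSCR, 1.47-fold lower (1.30 to 1.65). Its paralog Ezh1 was at 36.6 CPM in siHsc70 and 33.6 CPM in siSCR, a ratio within counting error (0.98 to 1.22). Ezh2 accounted for 52.8% of the summed TPM of both in siHsc70 and 64.1% in siSCR. The scaffold gene Suz12 was at 62.1 CPM in siHsc70 and 62.6 CPM in siSCR, and Eed, which reads the mark, at 30.6 CPM in siHsc70 and 26.2 CPM in siSCR, 1.17-fold higher (1.03 to 1.32). The group median of 0.055 was -0.080 with the deposited TPM.

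Of the bromodomain genes, which read acetylated histones, the BET member Brd2 was the 1 of 5 that was higher, at 224 CPM in siHsc70 and 197 CPM in siSCR, 1.14-fold (1.09 to 1.19). Over all measured genes 49.7% were higher. Brd3 was at 72.9 CPM in siHsc70 and 99.6 CPM in siSCR, 1.37-fold lower (1.27 to 1.47), and was the group's member furthest below 0. Brd1 was 1.36-fold lower (1.26 to 1.47), and Brd8 was 1.24-fold lower (1.15 to 1.33).

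The arginine methyltransferases were the 1 group besides PRC2 with a median above 0 (0.15). Of 7 measured genes 5 were higher, against 49.7% of all measured genes. With the deposited TPM the median was 0.0081, with 4 of 7 higher. Prmt1, the main enzyme of asymmetric dimethylation and the most abundant of all members at 208 TPM in siHsc70 and 299.6 TPM in siSCR, went the other way, at 129 CPM in siHsc70 and 167 CPM in siSCR, 1.30-fold lower (1.23 to 1.37). Prmt5, the main enzyme of symmetric dimethylation, was at 101 CPM in siHsc70 and 91.1 CPM in siSCR, 1.11-fold higher (1.04 to 1.18). Prmt2 was furthest above 0, at 75.5 CPM in siHsc70 and 62.3 CPM in siSCR, 1.21-fold higher (1.12 to 1.31). Prmt6 was 1.15-fold higher (1.02 to 1.29), Prmt7 1.13-fold higher (1.01 to 1.25) and Prmt9 1.08-fold higher (0.92 to 1.27), whereas Prmt3 was 1.11-fold lower (1.02 to 1.21).

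Genes of proteins that work with these enzymes were also lower more often than higher, mostly by small steps. Over 8 lists of partners with 101 measured genes, 77 were lower (76.2%, against 50.3% of all measured genes) and 24 higher in siHsc70, with a median of -0.19. At least 2-fold lower were 5 (4.95%, against 5.15%) and at least 1.5-fold lower were 10 (9.90%, against 12.1%), so that neither share exceeded the background. At 2-fold 0 were higher, and at 1.5-fold 1 was. The SWI/SNF subunit genes outside the symbol rule were all lower, 11 of 11, but with upper-quartile scaling 9 were lower and 2 higher. Bcl7a was at 20.3 CPM in siHsc70 and 57.1 CPM in siSCR, 2.81-fold lower (2.50 to 3.17). Dpf1, a subunit of neuronal BAF, was at 13.1 CPM in siHsc70 and 28.1 CPM in siSCR, 2.14-fold lower (1.83 to 2.50). Jarid2, an accessory subunit of PRC2, was at 22.7 CPM in siHsc70 and 63.5 CPM in siSCR, 2.79-fold lower (2.49 to 3.13). In its list of 21 measured Polycomb genes 15 were lower, and Phf1, another accessory gene, was the highest at 36.3 CPM in siHsc70 and 23.2 CPM in siSCR, 1.57-fold higher (1.39 to 1.77). Setdb2 was at 7.23 CPM in siHsc70 and 15.9 CPM in siSCR, 2.20-fold lower (1.79 to 2.72), the 1 of 18 further histone methyltransferase and COMPASS genes past 2-fold.

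The sirtuins, the deacetylases that need NAD, included the largest difference of all these lists. Sirt2, whose protein is abundant in myelin, was at 350 CPM in siHsc70 and 1638 CPM in siSCR, 4.68-fold lower (4.55 to 4.81), while the other 6 sirtuin genes lay between -0.29 and 0.36 in difference. The 10 measured NuRD partners had a median of -0.060 with none past 1.5-fold, and Mta2 was furthest from 0 at 115 CPM in siHsc70 and 149 CPM in siSCR. That median was 0.0004 with upper-quartile scaling. Corepressor partners of the HDACs had a median of -0.12, with 9 of 13 lower and none past 1.5-fold. Over all measured genes 50.3% were lower. With upper-quartile scaling 8 of the 13 were lower, and with the deposited TPM 11 were. The histone acetyltransferases, which counter the HDACs, had a median of -0.18, with 8 of 11 lower, against 50.3% of all measured genes. Of these acetyltransferases Kat5 was furthest below 0, at 39.5 CPM in siHsc70 and 52.6 CPM in siSCR. Among methyl-CpG readers and cofactors 8 of 10 were lower, against 50.3% of all measured genes. Tdg, the glycosylase that completes TET-initiated demethylation, was at 56.1 CPM in siHsc70 and 96.5 CPM in siSCR, 1.72-fold lower (1.59 to 1.86).

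**Figure D5:**
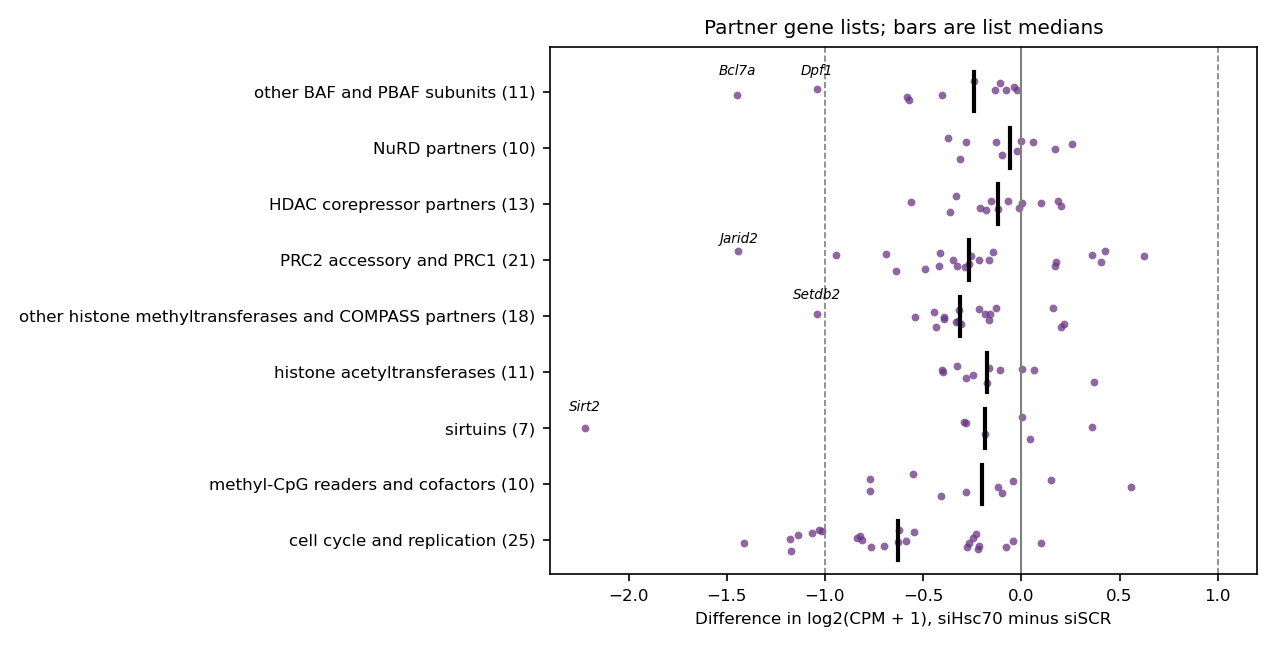
Difference in log2(CPM + 1), siHsc70 minus siSCR, of measured genes (points) in the partner lists and the cell cycle list, with the number of genes in brackets and list medians as black bars. The solid line is the median of all measured genes and dashed lines mark 2-fold. Sirt2 lies furthest left (-2.22), and the cell cycle list has the lowest median (-0.63).

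The 6 members that were not measured were at or near 0 in both libraries. Arid3c had 0 counts in siHsc70 and 2 in siSCR, and Prmt8, an enzyme of the brain, had 3 in siHsc70 and 5 in siSCR. Kdm4dl2 and Smarce1l each had 0 counts in siHsc70 and 1 in siSCR, Hdac1l had estimated counts of 2.41 in siHsc70 and 1.77 in siSCR, and Dnmt3l is given above. A count of 0 allows up to 3 counts, or 0.167 CPM in siHsc70 and 0.156 CPM in siSCR, so no ratio is given for them.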

How the data were processed

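RNA from 1 siHsc70 and 1 siSCR library was analysed from a table of the whole series whose columns were tied to samples by the siRNA in their names. The estimated counts deposited by the authors are not normalised and need not be whole (22 of 98 members had a fractional value), per the file headers and values. The deposited FPKM values are scaled for length and depth, and the deposited TPM values for length and to a common total per library, per the file headers. The submitters' processing notes name the build mm39, whereas 16783 of 18049 gene IDs were found among rat RefSeq genes (GRCr8), 97 of the 98 members among them; 95 members kept their symbol there. Which aligner, counter, annotation and strand setting were used is not given in the sources used here.

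Counts were rounded and scaled to CPM with the TMM factors of edgeR 4.0.16 (0.992 for siHsc70, 1.01 for siSCR) in R 4.3.3. Differences use a pseudocount of 1 CPM, which understates those of low genes, and folds use none. Intervals are 95% exact (Clopper-Pearson) intervals on the reads of both libraries. They describe counting error alone, as does the floor of 3 counts, and reads copied by PCR are not separate molecules. Effective length is the estimated count divided by FPKM and library total, for genes with an FPKM of at least 1 in the library concerned. As alternatives, the pseudocount, the minimum mean and the scaling were varied, including DESeq2 1.42.0 size factors, and the deposited TPM and FPKM, added pseudogene rows and current symbols were used. The genes named are members past 2-fold, those furthest from 0 and most abundant in each role group, those with a described role in oligodendrocytes, and in partner lists those past 2-fold or else furthest from 0; other members named were chosen after their values were seen. The values of 1 member and 1 partner gene are not reported here. Members, role groups and lists were chosen with earlier results of these data known.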

Additional observations from a re-analysis of the deposited data

How the results depend on the processing

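The number of members at least 2-fold lower, 5 in the analysis above, was 9 with a pseudocount of 0.1 CPM (9.78%, against 6.65% of all genes). With the deposited FPKM it was 3 (3.41%, against 4.09% of all genes). The median difference, -0.28, was -0.41 with the deposited TPM. That scale put 24 members at least 1.5-fold lower in place of 16 (26.4%, against 15.5% of all genes). It put 80 of 91 lower by any amount, against 63.1% of all genes. No member was at least 1.5-fold higher under any of the 10 alternatives, and the median lay between -0.41 and -0.22. Chd3, Hdac9 and Hdac11 were at least 2-fold lower under all 10, and Dnmt3a under 4. Tet1 and Dnmt3b fell below the minimum mean with the deposited FPKM, as did Dnmt3b at 5 CPM, and Dnmt3b was at -0.85 with the deposited TPM. Of 42 named members, 24 left their counting interval with the deposited TPM, 3 of 39 with the deposited FPKM and 2 with upper-quartile scaling. None of the 16 members past 1.5-fold changed sign under 6 scalings. The median of all genes moved only between -0.13 and 0.054 under these scalings, so members that far from 0 could hardly change sign. There were 0 pseudogene rows to add. Leaving out a library and a fit of differences were not possible with 1 library per group. No paired analysis was possible because the groups hold 1 library each. Depth limits the least abundant members: the counting interval of Dnmt3b spans 1.93-fold to 6.13-fold.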

Other observations

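The deposited symbols miss or misplace a few chromatin regulators. The row deposited under the name RGD1311595 is now Brd10, a bromodomain gene, and was at 45.2 CPM in siHsc70 and 71.4 CPM in siSCR, 1.58-fold lower (1.45 to 1.72). The row now named Kdm6a by its gene ID, deposited under the name NEWGENE_1565481, was at 43.6 CPM in siHsc70 and 52.5 CPM in siSCR, a ratio with a counting interval from 1.10-fold to 1.32-fold lower. It encodes the X-linked counterpart of Uty and, on the TPM scale, stood at 13.4 TPM in siHsc70 and 17.8 TPM in siSCR, against 1.93 TPM in siHsc70 and 2.91 TPM in siSCR for the row deposited as Kdm6a. With current symbols 93 members were measured. At least 1.5-fold lower were 17 of them (18.3%, against 12.1% of all measured genes), and 0 were higher by as much, against 9.65%. These rows were named after their values were seen.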
